A study of Rattus norvegicus with 39 samples.

Results

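Enzymes that remove superoxide, hydrogen peroxide and lipid peroxides, that make and recycle glutathione, and that join glutathione to reactive compounds were described in CA1 of the rat hippocampus. Members were the probe sets of the array that carry a single gene symbol of the glutathione S-transferase, microsomal glutathione S-transferase, glutathione peroxidase, peroxiredoxin, superoxide dismutase, glutamate-cysteine ligase, thioredoxin reductase or haem oxygenase families, or the symbols Cat, Nqo1, Gsr, Gss or Txn1. This gave 74 probe sets of 40 genes, out of 4736 genes with a single symbol, and no probe set carried the symbol Txn1 alone. Of these, 64 probe sets of 36 genes had a mean signal at or above the 30th percentile of the array (log2 6.28) and entered the tests, and 10 did not.

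Each of 39 Affymetrix arrays measured total RNA from the CA1 block of 1 male Fischer 344 rat aged 18 months. Sham rats (n = 10) were intact, had a sham operation and carried an inert pellet. All other rats were adrenalectomized and carried a slow-release corticosterone pellet for 3 months: 25 mg in LowCORT (n = 10), 200 mg in IntermediateCORT (n = 9) and 25 mg in the Injected group (n = 10), which also received 5 mg of corticosterone per day by intraperitoneal injection on 4 days just before the end. Corticosterone is the main glucocorticoid of the rat. Per the labels, saline with sucrose stayed the drinking fluid of rats with the 25 mg pellet, so fluid and dose cannot be told apart, and adrenalectomy also takes away the source of aldosterone. The series set the 4 states side by side to find hippocampal transcripts that depend on glucocorticoids. LowCORT is the reference of several comparisons below, so these share its 10 arrays, and those against Sham share the Sham arrays. The tissue was a mixture of cells, and fewer cells of a type and less RNA per cell cannot be told apart.

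Superoxide dismutases turn superoxide into hydrogen peroxide, which catalase, the glutathione peroxidases and the peroxiredoxins then reduce. The peroxidases spend glutathione, made by glutamate-cysteine ligase and glutathione synthetase and recycled by glutathione reductase. Most peroxiredoxins draw on thioredoxin and its reductases. Glutathione S-transferases attach glutathione to electrophiles, and many enzymes of this system, including Nqo1, Gclm, Hmox1 and Gstp1, are known targets of the transcription factor Nrf2, which binds the antioxidant response element. In brain, astrocytes are the main site of glutathione export, and Hmox1, which breaks down haem, is made by microglia and other glia under stress.

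Of the 40 genes, 32 had at least 1 promoter in the RefSeq table of the rat assembly GRCr8. Hmox1, Sod3, Gsr, Gstt1, Gstt2, Mgst2, Prdx6 and Hmox2-ps1 had no entry. The 250 bases before each start were searched on both strands for the core of the antioxidant response element, TGACNNNGC, and for the glucocorticoid response element as a full site (AGAACA and its reverse complement, 3 bases apart) or as AGAACA alone, which every full site also contains. The antioxidant core matched in 10 of the 32 genes (31.2%), counting a gene with several starts where any start matched, and in 10 of their 37 promoters (27%), against 10.1% of 33469 promoters of the assembly. The matching genes were Gclm, Gpx2, Gsta3, Gstm5, Gstm7, Gstp1, Hmox2, Prdx1, Sod2 and Txnrd1. The full glucocorticoid site matched in 0 of the 32 genes and 0.012% of all promoters. AGAACA matched in 6 of the 32 genes (18.8%) and in 6 of their 37 promoters (16.2%), against 17.5% of all promoters. These 6 genes were Gpx3, Gpx5, Gsta4, Gstm1, Mgst3 and Txnrd1. A match is a run of letters, not a shown binding site. Shown here, as examples of promoters with a match, are the 250 bases before the start, from 5′ to 3′ on the gene's strand, of Gclm, the modifier subunit of glutamate-cysteine ligase (chr2:213031885-213032134, plus strand), of the peroxiredoxin Prdx1 (chr5:135383656-135383905, plus strand) and of the transferases Gstp1 (chr1:210769706-210769955, minus strand) and Gstm5 (chr2:198219519-198219768, plus strand). Capitals mark the matches to TGACNNNGC, read on the opposite strand in Gclm and Prdx1.
Gclm: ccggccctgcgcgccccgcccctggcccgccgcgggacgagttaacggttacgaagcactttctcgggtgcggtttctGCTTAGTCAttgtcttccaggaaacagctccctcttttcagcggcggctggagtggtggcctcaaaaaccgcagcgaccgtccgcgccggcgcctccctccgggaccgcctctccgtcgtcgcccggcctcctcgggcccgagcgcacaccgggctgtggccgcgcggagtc
Prdx1: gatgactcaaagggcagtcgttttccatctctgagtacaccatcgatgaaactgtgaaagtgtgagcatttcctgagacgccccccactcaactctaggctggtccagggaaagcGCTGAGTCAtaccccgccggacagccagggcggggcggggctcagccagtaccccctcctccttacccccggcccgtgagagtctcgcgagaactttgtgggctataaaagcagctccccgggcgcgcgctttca
Gstp1: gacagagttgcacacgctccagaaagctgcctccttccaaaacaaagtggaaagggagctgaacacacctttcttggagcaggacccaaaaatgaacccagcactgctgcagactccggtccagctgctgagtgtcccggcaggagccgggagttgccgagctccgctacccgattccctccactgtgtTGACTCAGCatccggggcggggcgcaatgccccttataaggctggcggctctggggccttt
Gstm5: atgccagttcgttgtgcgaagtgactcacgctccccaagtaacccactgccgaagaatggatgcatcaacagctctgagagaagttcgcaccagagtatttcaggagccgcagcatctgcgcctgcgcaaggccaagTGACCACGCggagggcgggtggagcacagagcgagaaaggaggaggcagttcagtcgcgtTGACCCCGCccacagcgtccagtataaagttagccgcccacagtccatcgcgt
The matches began 172 bases before the start in Gclm, 135 in Prdx1, 61 in Gstp1, and 113 and 53 in Gstm5. The 13 tested probe sets of genes with the antioxidant core had median log2 differences of -0.04 for LowCORT against Sham, 0.04 for IntermediateCORT against LowCORT and 0.00 for Injected against LowCORT. The 37 of genes with a promoter but no match had -0.02, -0.04 and 0.01. Nqo1, named above as a target of Nrf2, had no match in these 250 bases and fell among the latter. This split thus does not separate targets of Nrf2 from other genes.

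The arrays of subjects 6 (Sham), 34 and 35 (both Injected) stood apart in several members. Their log2 values for a Gstm1 probe set, H32189_s_at, were 7.87, 7.54 and 7.98, while the next lowest Sham array was at 9.60. The control probe sets for Gapdh read 0.96, 1.04 and 2.41 higher at the 3′ than at the 5′ end on these arrays (log2), against group means of 0.70 ± 0.22 (SD, n = 10) in Sham and 1.03 ± 0.60 (SD, n = 10) in Injected. Those for beta-actin differed by 0.10, 0.17 and 0.04, against group means of 0.65 to 0.93. On Gapdh only subject 35 lay beyond all other arrays. Sham subject 10 read 1.15 there, and Injected subjects 38 and 39 read 1.36 and 1.56 (1.85 and 2.13 on beta-actin). Results that rest on these arrays are given with and without them.

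As a group the members differed little between the 4 states. Tests were made with limma over 6118 probe sets, with a Benjamini-Hochberg adjusted p under 0.05 as the threshold for a call. LowCORT against Sham called 1.68% of all probe sets and 0 of the 64 members, and IntermediateCORT against LowCORT called 2.14% of all and 1 member, the fall in Hmox1. Injected against LowCORT called 0.343%, Injected against IntermediateCORT 0.196%, IntermediateCORT against Sham 0.0163% and Injected against Sham 0.229% of all probe sets, with 0 members in each. The F test over the 4 groups called 2.27% of all probe sets and 1 member, Sod3. The median member lay within 0.03 of 0 on the log2 scale in each of the 6 comparisons, from -0.025 for IntermediateCORT against LowCORT to 0.026 for Injected against IntermediateCORT, where all probe sets had 0.006 and 0.015. Between 55 and 63 of the 64 members lay within 0.25 of 0 in each comparison, with a median SE of 0.08. In all comparisons and for every member the arrays of the groups overlapped. Overlap was not counted over all probe sets, so this does not set the members apart.

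At an unadjusted limma p under 0.05 the counts were uneven. They were 4 of 64 members (6.25%, all higher) for LowCORT against Sham, where 13.6% of all probe sets passed, and 15 (23.4%, 6 higher and 9 lower) for IntermediateCORT against LowCORT, where 11.9% passed. Injected against LowCORT had 6 (9.38%, against 7.37%), Injected against IntermediateCORT 15 (23.4%, against 11.4%), and IntermediateCORT against Sham and Injected against Sham 4 each (6.25%, against 4.22% and 5.95%). Without subjects 6, 34 and 35, the share for Injected against IntermediateCORT was 9.38% of members against 7.65% of all. The share for IntermediateCORT against LowCORT was then 28.1% against 14.5%. With the 3′ to 5′ differences of Gapdh and beta-actin as covariates, these shares were 12.5% against 8.06% for Injected against IntermediateCORT and 17.2% against 13% for IntermediateCORT against LowCORT. Members of a gene share probes and transcripts, so these shares are descriptions.

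**Figure D1:**
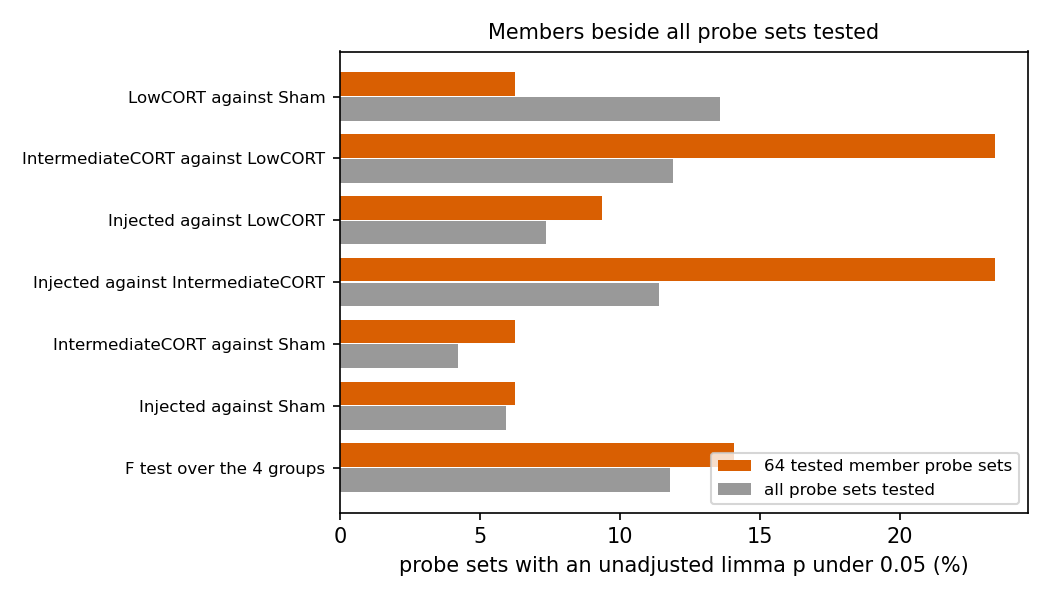
Horizontal bars give the percent of probe sets with an unadjusted limma p under 0.05 in each comparison and in the F test, for the 64 tested members (orange) and for all 6118 probe sets tested (grey). Members exceed all probe sets most in the comparisons of IntermediateCORT with LowCORT and with Injected (both 23.4%) and fall short in LowCORT against Sham (6.25% against 13.6%).

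**Figure D2:**
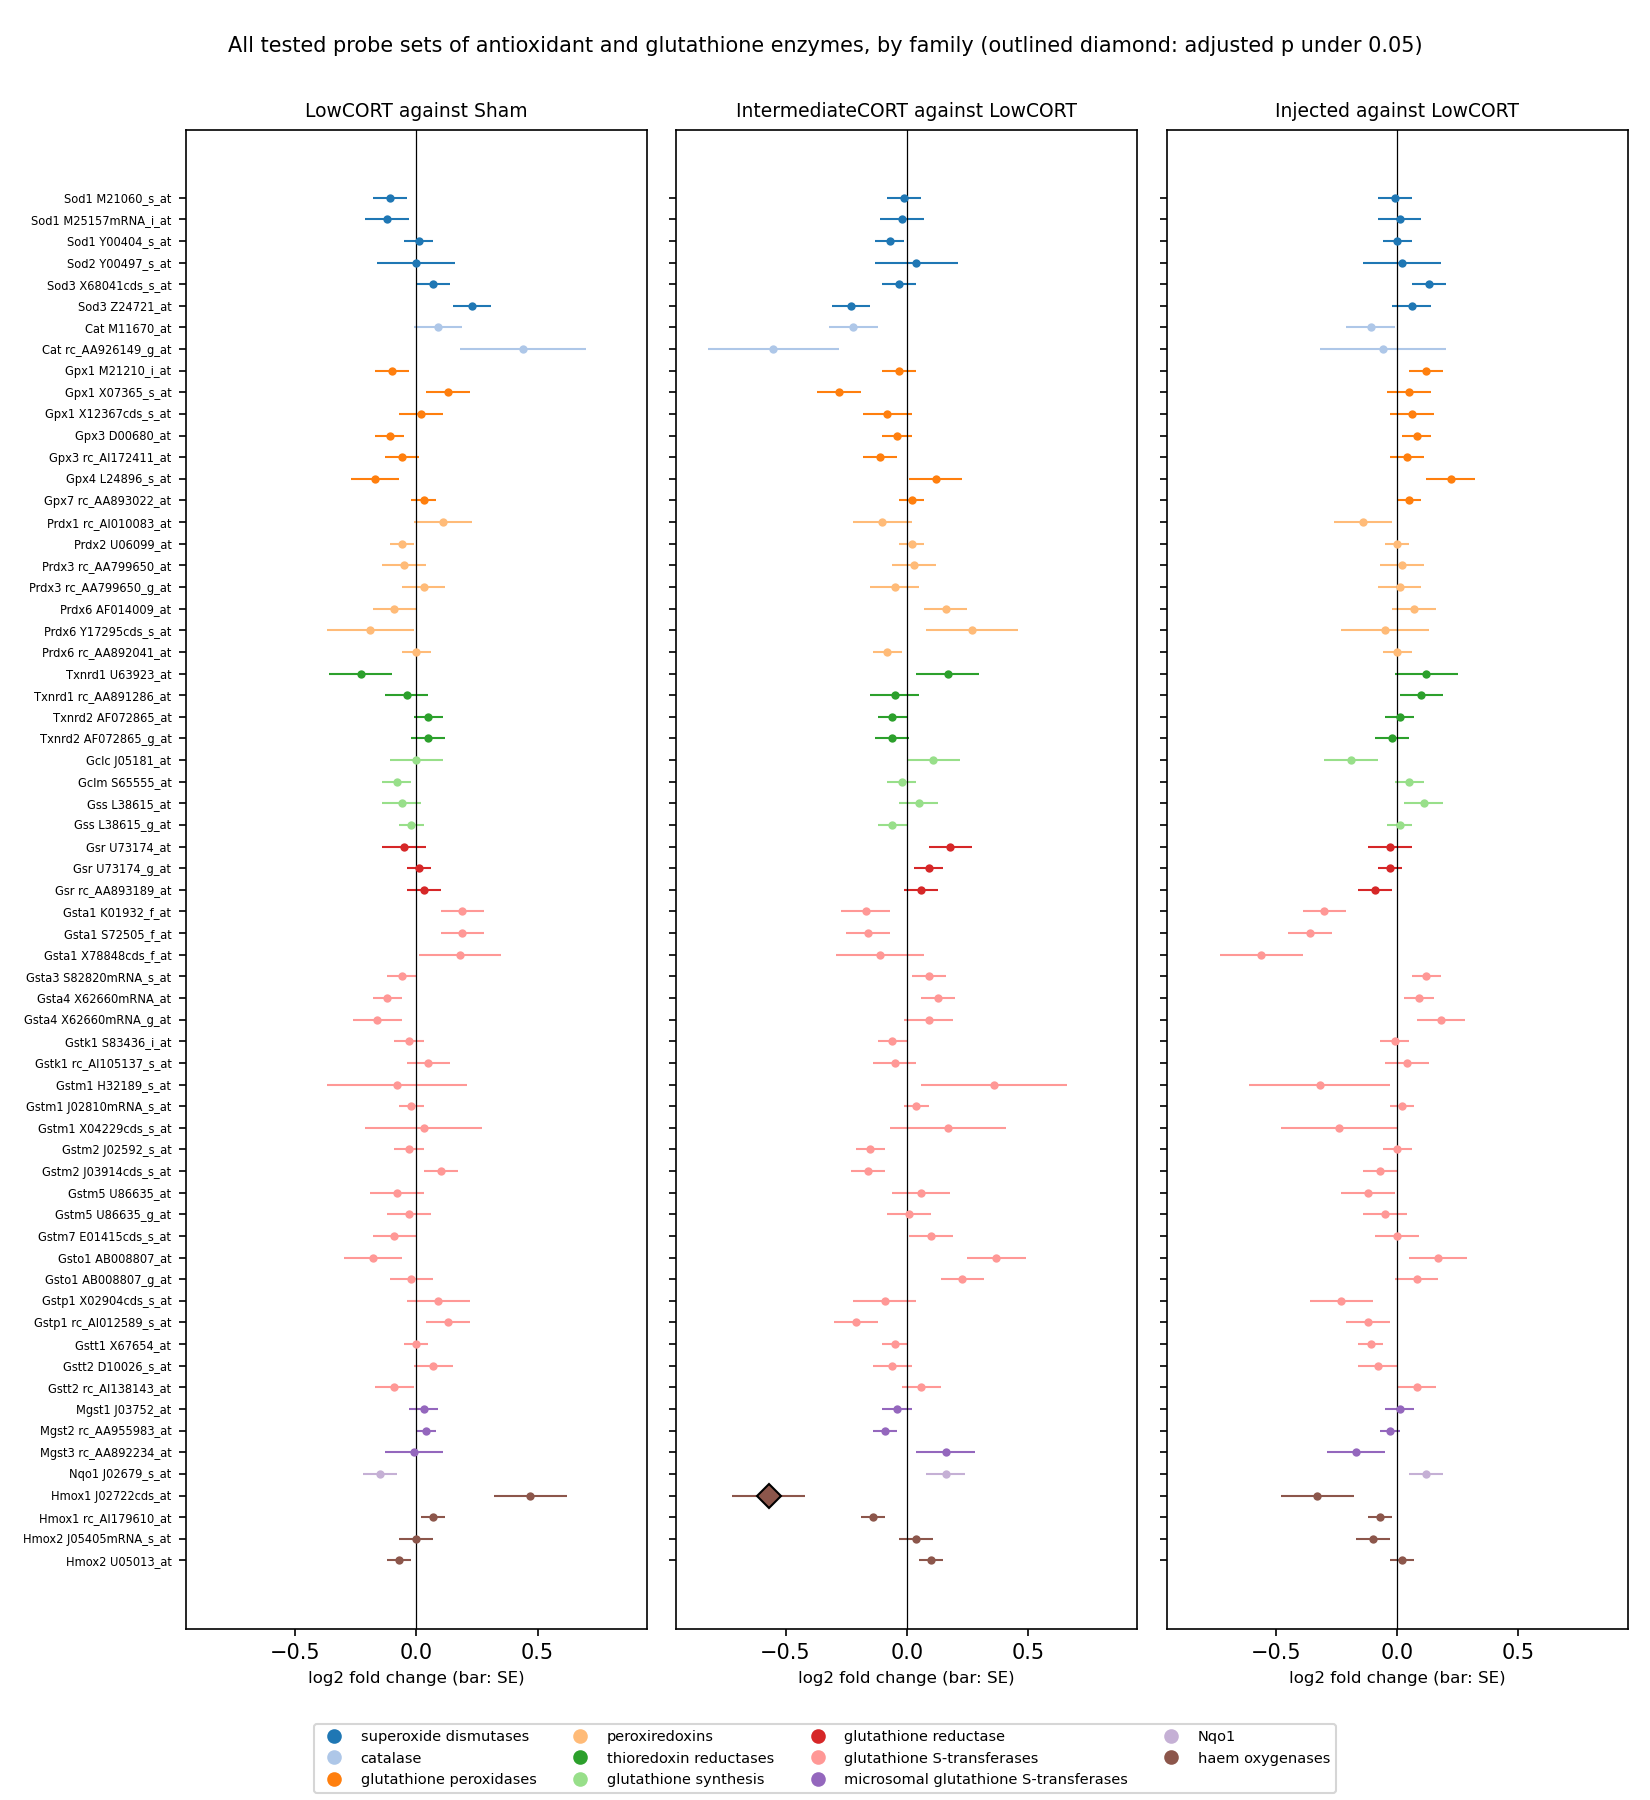
Points give the log2 fold change of each tested member probe set, with bars of 1 SE, for LowCORT against Sham, IntermediateCORT against LowCORT and Injected against LowCORT, coloured by family. Most points lie within 0.25 of 0, the 1 probe set called is Hmox1 (outlined), and the 3 Gsta1 probe sets lie between -0.30 and -0.56 in the right panel.

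Among the superoxide dismutases, Sod3, the secreted enzyme of the extracellular space, differed over the 4 groups, while Sod1 of the cytosol and Sod2 of the mitochondrion passed no test. On probe set Z24721_at, the lowest, median and highest log2 values were 8.69, 8.82 and 9.16 in Sham and 8.92, 9.02 and 9.35 in LowCORT. They were 8.63, 8.87 and 8.99 in IntermediateCORT and 8.79, 9.15 and 9.52 in Injected. By median, LowCORT and Injected were thus the higher pair and Sham and IntermediateCORT the lower, with overlap in every pairing. The Injected group was split, with subjects 30 to 35 at 9.05 to 9.52 and subjects 36 to 39 at 8.84, 8.79, 9.00 and 8.86. The F test gave an adjusted p of 0.0271 with limma, and it stayed under 0.05 when any 1 array was left out (0.00903 to 0.046) but not without subjects 6, 34 and 35 (0.0511).

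No single comparison of Sod3 passed the threshold. Its level was 0.23 (SE 0.08, limma adjusted p = 0.114) higher in LowCORT than in Sham, and all 10 LowCORT arrays lay above the Sham mean. It was lower by a log2 difference of -0.23 (SE 0.08, limma adjusted p = 0.154) in IntermediateCORT than in LowCORT, and 8 of 9 IntermediateCORT arrays lay below the lowest LowCORT array. Injected rats were 0.28 (limma adjusted p = 0.12) above IntermediateCORT and 0.29 (limma adjusted p = 0.121) above Sham. Without subjects 6, 34 and 35 these were 0.21 and 0.23 (limma adjusted p = 0.381 and 0.443). With the 3′ to 5′ differences of Gapdh and beta-actin as covariates, the first pair passed the test (0.27, limma adjusted p = 0.0165, and -0.25, limma adjusted p = 0.0307). A second Sod3 probe set, X68041cds_s_at, had medians of 7.12, 7.21, 7.19 and 7.31 in Sham, LowCORT, IntermediateCORT and Injected. It was highest in the Injected group as well (0.20 above Sham, SE 0.07), but its F test did not pass (limma adjusted p = 0.341). On this second probe set the medians of LowCORT (7.21) and IntermediateCORT (7.19) lay close together, unlike on Z24721_at. There too Injected subjects 36 to 39 were the lowest of their group, at 7.19, 7.23, 7.09 and 7.02.

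The 3 probe sets of Sod1 differed by -0.12 to 0.01 between LowCORT and Sham and by -0.07 to -0.01 between IntermediateCORT and LowCORT. On M21060_s_at the Sham mean was 11.27 ± 0.21, that of LowCORT 11.16 ± 0.12, that of IntermediateCORT 11.15 ± 0.13 and that of Injected 11.15 ± 0.16 (SD, n = 9 or 10). Sod2, on its only probe set, had means of 7.82, 7.81, 7.85 and 7.84 in the same order with SDs of 0.33 to 0.51, so its spread between rats far exceeded the differences.

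Of the enzymes that reduce hydrogen peroxide, Gpx1, the cytosolic selenium peroxidase, came closest to the threshold. Probe set X07365_s_at ran from 10.30 to 11.03 (median 10.56) in Sham and from 10.55 to 10.92 (10.69) in LowCORT. It ran from 10.28 to 10.65 (10.44) in IntermediateCORT and from 10.50 to 11.45 (10.73) in Injected. IntermediateCORT was the lowest group. Its difference from LowCORT was -0.28 (SE 0.09, limma adjusted p = 0.122), with 9 of 9 arrays below the LowCORT mean and 6 below its lowest array. It passed without subjects 6, 34 and 35, none of which is in either group but which enter the shared estimate of spread (-0.28, limma adjusted p = 0.00853), without subject 35 alone (0.0453), with the 3′ to 5′ covariates (-0.26, 0.0357) and with only the compared groups in the fit (0.0171). Injected rats were 0.33 (SE 0.09, limma adjusted p = 0.12) above IntermediateCORT in 10 of 10 arrays, or 0.21 (limma adjusted p = 0.292) without subjects 34 and 35 and the Sham array. The other Gpx1 probe sets gave IntermediateCORT against LowCORT differences of -0.08 and -0.03, smaller than on the first, and neither passed.

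Gpx3, the peroxidase secreted into plasma and extracellular fluid, had its lowest mean in IntermediateCORT on both probe sets. D00680_at ran from 6.25 to 6.74 in Sham (median 6.45), 6.15 to 6.63 in LowCORT (6.32), 6.19 to 6.46 in IntermediateCORT (6.31) and 6.27 to 6.70 in Injected (6.42). On rc_AI172411_at the medians were 8.85, 8.78, 8.70 and 8.84. The differences of IntermediateCORT from Sham were -0.15 (SE 0.06, limma adjusted p = 0.983) and -0.17 (SE 0.07, limma adjusted p = 0.971), so neither passed. Gpx4, which reduces lipid peroxides in membranes, was 0.22 higher in Injected than in LowCORT (SE 0.10, limma adjusted p = 0.664), and 0.07 higher (limma adjusted p = 0.999) without subjects 6, 34 and 35, the last of which held its highest value, 12.31. The transcripts of Gpx2, Gpx5 and Gpx6 lay below the filter on low signal.

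Catalase, the peroxisomal enzyme, was measured above the filter by a pair of probe sets. M11670_at had medians of 6.73, 6.82, 6.61 and 6.80 in Sham, LowCORT, IntermediateCORT and Injected, and rc_AA926149_g_at 7.67, 8.05, 7.54 and 7.82. IntermediateCORT against LowCORT gave -0.22 (SE 0.10) and -0.55 (SE 0.27), with 9 of 9 arrays below the LowCORT mean on both and limma adjusted p-values of 0.39 and 0.412. On the second probe set 1 IntermediateCORT array, subject 19, was at 5.38 with the next lowest at 7.14, and leaving out 1 array moved the difference between -0.66 and -0.31.

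Peroxiredoxins and thioredoxin reductases showed no called difference. The 7 peroxiredoxin probe sets (Prdx1, Prdx2, Prdx3 and Prdx6) had 0 with an unadjusted p under 0.05 in all 6 comparisons, and limma adjusted p-values of at least 0.52. Prdx2, a cytosolic peroxiredoxin abundant in neurons, had means of 11.58 ± 0.12, 11.52 ± 0.10, 11.54 ± 0.12 and 11.52 ± 0.09 (SD) in Sham, LowCORT, IntermediateCORT and Injected. Prdx3, the mitochondrial form, had means of 9.42 to 9.46 on 1 probe set and 9.42 to 9.48 on the other. Prdx6, which also has phospholipase activity, differed most on Y17295cds_s_at, where the SD within groups was 0.43. Its largest difference was -0.32 (SE 0.19, limma adjusted p = 0.52) for Injected against IntermediateCORT, and without subjects 6, 34 and 35 this Prdx6 difference was -0.09 (SE 0.16, limma adjusted p = 0.952). Txnrd1 and Txnrd2, the cytosolic and mitochondrial thioredoxin reductases, lay between -0.23 and 0.17 over the comparisons with Sham and LowCORT shown in the plot of all members, and 0 of their 4 probe sets had an unadjusted limma p under 0.05.

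Glutathione synthesis differed little. Gclc, the catalytic subunit of glutamate-cysteine ligase and the rate-limiting step, ran from 6.14 to 7.08 in Sham (median 6.79), 6.45 to 7.20 in LowCORT (6.78), 6.52 to 7.15 in IntermediateCORT (6.96) and 6.03 to 6.95 in Injected (6.64). The Injected group lay lowest and all groups overlapped. It differed from IntermediateCORT by -0.30 (SE 0.11, limma adjusted p = 0.281), with 9 of 10 arrays below the IntermediateCORT mean, and by -0.19 (limma adjusted p = 0.657) without subjects 6, 34 and 35. Subjects 6 and 34 held the lowest values of their groups. Gclm had means of 7.74 to 7.85 over the groups, and the synthetase Gss 6.55 to 6.66 on 1 probe set and 8.94 to 9.01 on the other. Gsr, which regenerates glutathione with NADPH, was higher in IntermediateCORT than in LowCORT on its 3 probe sets by 0.18, 0.09 and 0.06, and lower in Injected than in IntermediateCORT by -0.21, -0.12 and -0.15. None of these passed (smallest limma adjusted p 0.353), and without subjects 6, 34 and 35 the last 3 were -0.21, -0.10 and -0.07.

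Among the glutathione S-transferases, Gsta1 of the alpha class was the closest to a call. Its 3 probe sets are marked as family probes, which bind sequences shared by near-identical genes, so the signal cannot be given to Gsta1 alone. On S72505_f_at the lowest, median and highest values were 9.86, 10.38 and 10.54 in Sham and 10.23, 10.55 and 10.69 in LowCORT. They were 10.15, 10.26 and 10.65 in IntermediateCORT and 9.59, 10.19 and 10.46 in Injected. Injected rats were low and LowCORT rats high, and 6 of 10 Injected arrays lay below the lowest LowCORT array. The difference was -0.36 (SE 0.09, limma adjusted p = 0.0533). It was -0.30 (SE 0.09, limma adjusted p = 0.269) on K01932_f_at and -0.56 (SE 0.17, limma adjusted p = 0.248) on X78848cds_f_at, with 10 of 10 Injected arrays below the LowCORT mean on each of the 3.

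The Gsta1 value on S72505_f_at passed the threshold with the 50th percentile filter, quantile normalization, a common 75th percentile, the order of subjects as a covariate or array weights (limma adjusted p 0.0144 to 0.0457). It also passed when any 1 of subjects 6, 20, 22, 30, 36 or 37 was left out (0.0267 to 0.0481). Without subjects 6, 34 and 35 together the 3 differences were -0.28 (limma adjusted p = 0.147), -0.25 and -0.33, and with the 3′ to 5′ covariates they were -0.28 (0.16), -0.23 and -0.35. On X78848cds_f_at, the difference without these subjects was thus over 1.5 times smaller. Subject 34 held the lowest Injected value on all 3 probe sets, and subject 6 the lowest Sham value.

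**Figure D3:**
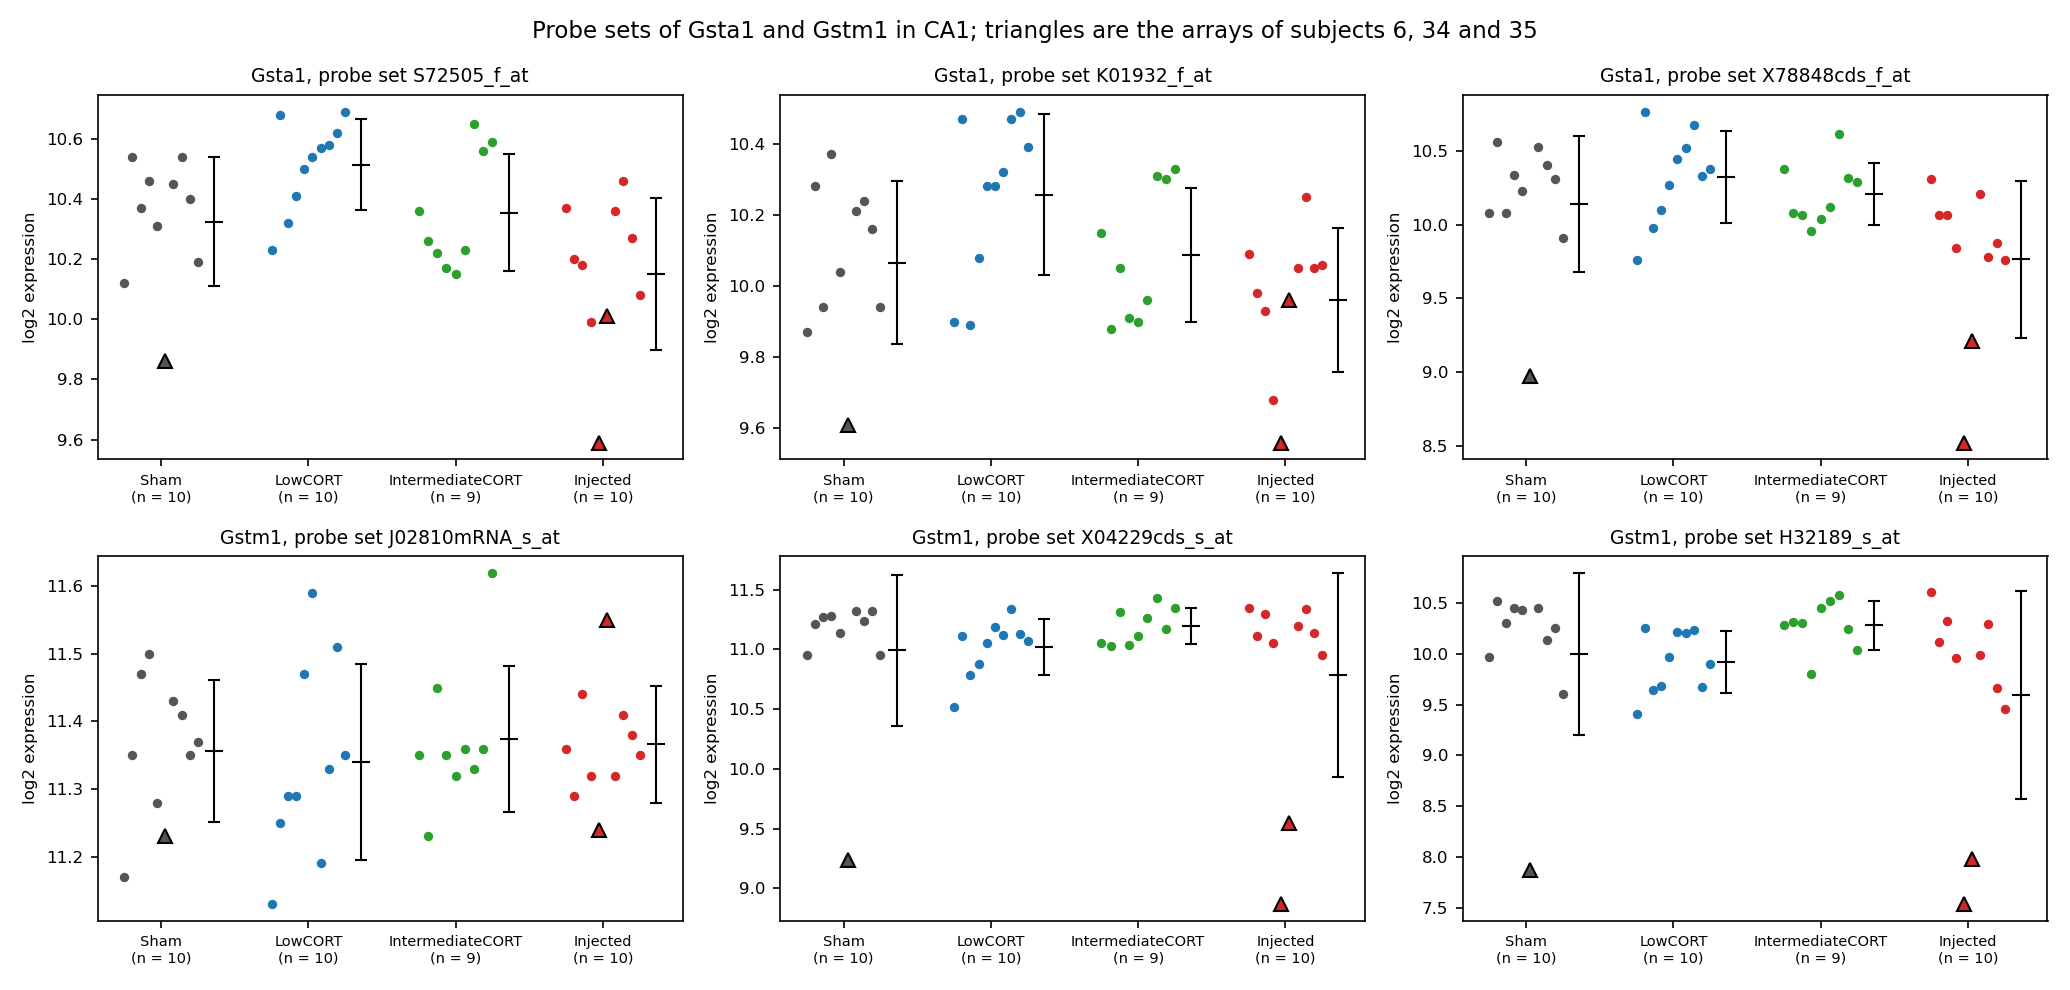
Each panel plots log2 expression of 1 probe set of Gsta1 (top) or Gstm1 (bottom) by group, with 1 point per rat and the group mean with its SD beside the points; the axes do not start at 0. Triangles are subjects 6, 34 and 35, which lie from 7.54 to 7.98 on the Gstm1 probe set H32189_s_at but inside the range of the other arrays on J02810mRNA_s_at.

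The 3 probe sets of Gstm1, a mu class transferase, did not move together. On H32189_s_at and X04229cds_s_at the SD within groups was 0.69 and 0.56, above 99.7% and 99.2% of all probe sets tested, and on J02810mRNA_s_at it was 0.11. The lowest arrays on the first pair were subjects 6, 34 and 35. Injected against IntermediateCORT gave -0.69 (SE 0.30, limma adjusted p = 0.372) on H32189_s_at. Without these 3 subjects it gave -0.23 (SE 0.14, limma adjusted p = 0.77). Injected against LowCORT was -0.32 (SE 0.29) with them and 0.13 (SE 0.14) without them, and neither passed. IntermediateCORT and LowCORT hold none of these subjects. Their means on H32189_s_at were 10.28 ± 0.24 (SD, n = 9) and 9.92 ± 0.30 (SD, n = 10), and that difference was not called either. On J02810mRNA_s_at the group means lay between 11.34 and 11.38.

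Gsto1, the omega class enzyme that also reduces dehydroascorbate, was highest in IntermediateCORT on both probe sets. AB008807_at ran from 9.76 to 10.68 in Sham (median 10.22), 9.51 to 10.41 in LowCORT (10.15), 10.01 to 10.74 in IntermediateCORT (10.40) and 9.84 to 10.75 in Injected (10.23). IntermediateCORT exceeded LowCORT by 0.37 (SE 0.12, limma adjusted p = 0.102) in 8 of 9 arrays. The value was 0.37 (limma adjusted p = 0.0479) without subjects 6, 34 and 35 and 0.43 (limma adjusted p = 0.044) without the IntermediateCORT subject 11. AB008807_g_at had medians of 10.98, 10.99, 11.21 and 11.03 and a difference of 0.23 (SE 0.09, limma adjusted p = 0.243).

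Gstm2, another mu class transferase, was lowest in IntermediateCORT. J02592_s_at ran from 7.36 to 7.70 in Sham (median 7.51), 7.25 to 7.72 in LowCORT (7.49), 7.12 to 7.58 in IntermediateCORT (7.37) and 7.32 to 7.61 in Injected (7.51), and J03914cds_s_at had medians of 6.77, 6.84, 6.68 and 6.77. IntermediateCORT differed from LowCORT by -0.15 (SE 0.06, limma adjusted p = 0.297) and -0.16 (SE 0.07, limma adjusted p = 0.324). Mu class genes are close copies of each other, so probes of 1 may bind another, and the labels do not say how far. Gstp1, the pi class enzyme, gave -0.21 (SE 0.09, limma adjusted p = 0.32) on rc_AI012589_s_at in that comparison and -0.09 on its other probe set. Gsta3, Gsta4, Gstk1, Gstm5, Gstm7, Gstt1 and Gstt2 lay between -0.06 and 0.13 there. The microsomal enzymes Mgst1, Mgst2 and Mgst3, which also detoxify lipid hydroperoxides, had differences of -0.04, -0.09 and 0.16. Mgst3 was lower in Injected than in IntermediateCORT by -0.33 (SE 0.12, limma adjusted p = 0.278), and by -0.19 (limma adjusted p = 0.63) without subjects 6, 34 and 35. Its lowest Injected value, 10.57, was that of subject 34.

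Nqo1, a quinone reductase widely used as a readout of Nrf2, did not pass in any comparison. J02679_s_at ran from 7.34 to 7.95 in Sham (median 7.53), 7.09 to 7.71 in LowCORT (7.46), 7.42 to 7.83 in IntermediateCORT (7.61) and 7.39 to 7.86 in Injected (7.58). LowCORT lay lowest, by -0.15 against Sham (limma adjusted p = 0.388), and IntermediateCORT was 0.16 above it (SE 0.08, limma adjusted p = 0.409).

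Hmox1, the inducible haem oxygenase, was the 1 member called between a pair of groups. On J02722cds_at the lowest, median and highest values were 5.94, 6.15 and 6.37 in Sham and 6.01, 6.41 and 7.81 in LowCORT. They were 5.73, 6.05 and 6.51 in IntermediateCORT and 5.91, 6.30 and 6.77 in Injected. LowCORT held the highest values and the widest spread, with subjects 22 (7.81) and 23 (7.46) above all other arrays, and the groups overlapped. Hmox1 fell by 0.57 on the log2 scale (SE 0.15, limma adjusted p = 0.0335) from LowCORT to IntermediateCORT, a 1.49-fold difference, with 9 of 9 arrays below the LowCORT mean and 4 below its lowest array. LowCORT was 0.47 above Sham (SE 0.15, limma adjusted p = 0.0992) in 8 of 10 arrays, and Injected differed from LowCORT by -0.33 (SE 0.15, limma adjusted p = 0.644).

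The Hmox1 call rested on few arrays. Its probe set had a mean of 6.29 over all arrays, just above the filter of 6.28, and a mean of 6.17 over the 29 arrays outside LowCORT. It thus entered the tests through the group where it was high, and the call is a description of these arrays. With no filter on low signal its limma adjusted p was 0.039. Without subjects 22 and 23 the difference was -0.32 (limma adjusted p = 0.117), over 1.5 times smaller. Leaving out any 1 of subjects 13, 14, 16, 18, 22, 23 or 25 also ended the call (0.0609 to 0.0779), as did fitting only the compared groups (0.124), and with the 50th percentile filter the probe set was not tested. A second Hmox1 probe set, rc_AI179610_at, with a much smaller spread, had medians of 7.73, 7.76, 7.67 and 7.70 in Sham, LowCORT, IntermediateCORT and Injected. Its difference between IntermediateCORT and LowCORT was -0.14 (SE 0.05, limma adjusted p = 0.151), with 8 of 9 arrays below the LowCORT mean. Hmox2, the constitutive form abundant in neurons, gave 0.10 (SE 0.05, limma adjusted p = 0.375) and 0.04 there.

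**Figure D4:**
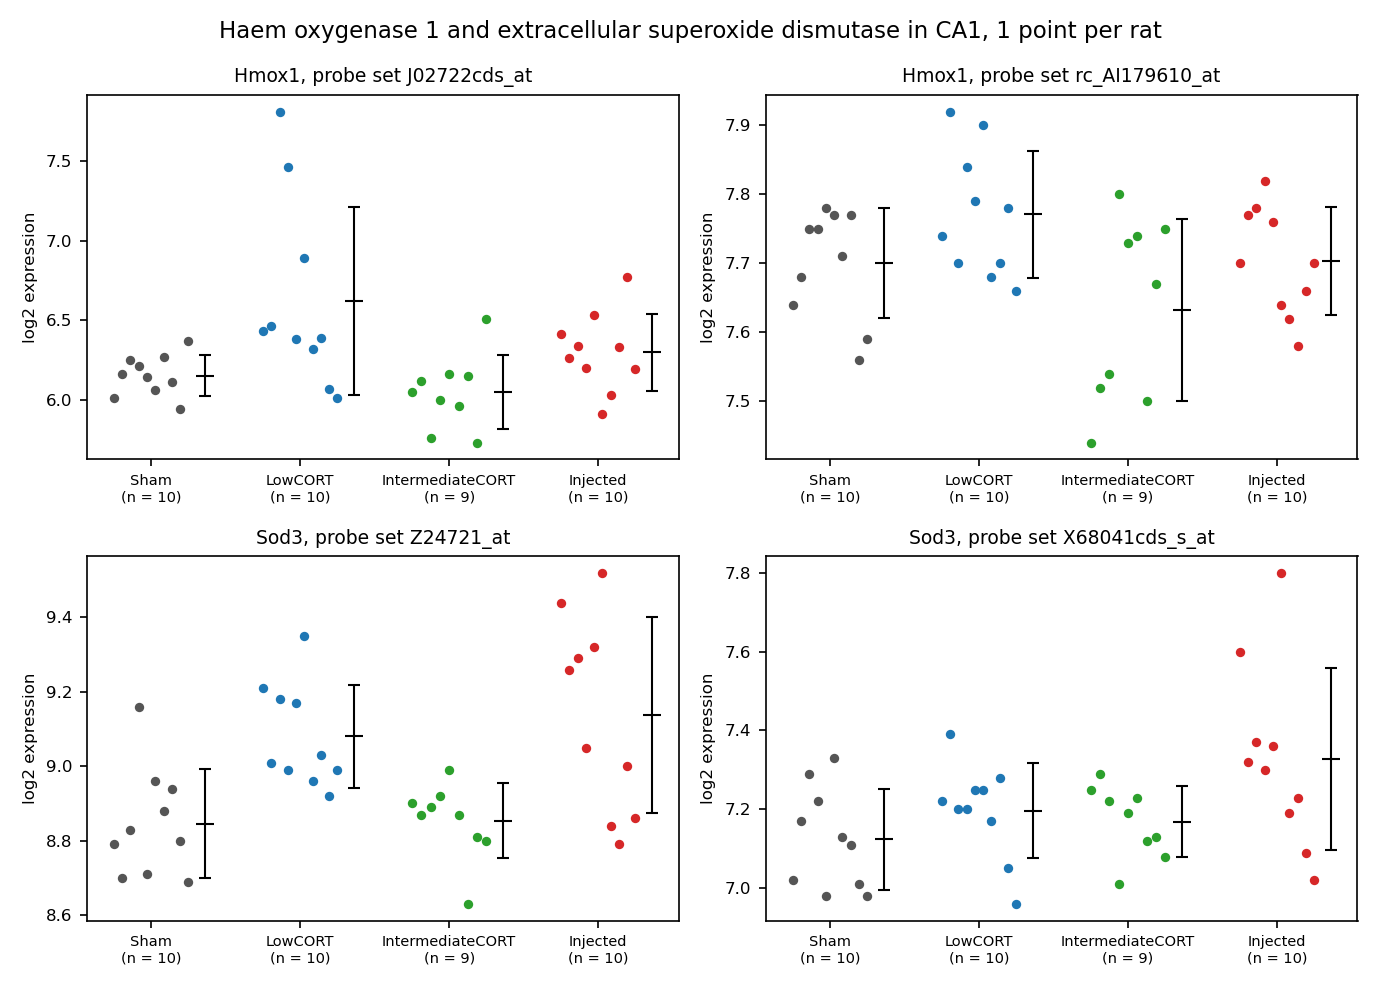
Panels plot log2 expression of the probe sets of Hmox1 and Sod3 by group, with 1 point per rat and the group mean with its SD; the axes do not start at 0. On the called Hmox1 probe set the LowCORT values of 7.81 and 7.46 lie above all other arrays. On Sod3 Z24721_at the LowCORT arrays and Injected subjects 30 to 35 lie mostly above those of Sham and IntermediateCORT, and Injected subjects 36 to 39 lie among them.

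Some markers of other cells were called in the comparisons that bear on Hmox1, Sod3 and Gpx1, and their part in those results was not tested. The median microglial, endothelial and fibroblast probe sets differed by 0.06, 0.01 and 0.02 for LowCORT against Sham. For IntermediateCORT against LowCORT these medians were -0.16, -0.07 and -0.05. Those comparisons called 1.68% and 2.14% of all probe sets, and Injected against LowCORT 0.343%. Of 10 tested microglia and macrophage probe sets, 2 were called higher in LowCORT than in Sham (Aif1 and Fcgr2b) and 3 lower in IntermediateCORT than in LowCORT (Cd53, Aif1 and Fcgr2b). The mean log2 level of that list ran from 7.68 to 7.78 in Sham, 7.69 to 7.99 in LowCORT, 7.60 to 7.89 in IntermediateCORT and 7.62 to 7.95 in Injected. Of 8 endothelial and pericyte probe sets, 1 was called higher (Slco1a4) and 2 lower (Kcnj8 and Slco1a4) in the same comparisons, with levels of 7.74 to 7.96, 7.89 to 8.17, 7.68 to 7.96 and 7.83 to 8.10. Of 12 fibroblast and meningeal probe sets, 2 were called higher and 3 lower, all of Dcn, with median levels of 7.62, 7.69, 7.59 and 7.69 in the same order of groups and a highest array at 8.01, in LowCORT. Subjects 22 and 23, highest for Hmox1, had microglial levels of 7.76 and 7.89 and vessel levels of 8.17 and 8.10. Their fibroblast and meningeal levels were 7.59 and 7.60, and their blood cell levels 8.67 and 9.26. In Injected against LowCORT, the comparison closest to a call for Gsta1, 1 of 4 blood cell probe sets was called higher (Alas2, 0.31), and the list ran from 8.67 to 9.61 in LowCORT and from 9.41 to 10.18 in Injected. In that comparison 1 microglial probe set (Fcgr2b) and 1 of Dcn were called lower. Of 14 neuronal probe sets, 1 was called higher in IntermediateCORT than in LowCORT (Hpca, 0.53, limma adjusted p = 0.00632) and 1 lower in Injected than in IntermediateCORT (Camk2a, -0.57, limma adjusted p = 0.0251). The mean neuronal level was lowest in LowCORT (9.89) and highest in IntermediateCORT (10.18), with Injected at 9.95 and Sham at 10.03, and arrays ran from 9.55 to 10.60. Of 12 oligodendrocyte probe sets, 1 was called lower in IntermediateCORT than in LowCORT (Cnp, -0.28, limma adjusted p = 0.0137). Astrocyte markers had 0 of 16 probe sets called in the 6 comparisons, with levels of 10.22 to 10.99 over all arrays. The mean astrocyte level was nonetheless highest in Sham (10.70, SD 0.17) and lowest in LowCORT (10.50, SD 0.20). IntermediateCORT was at 10.64 and Injected at 10.55. The median astrocyte probe set differed by -0.16 for LowCORT against Sham, and the part of this shift in the member results was not tested. Each of the astrocyte and neuronal lists had 6 of 8 genes tested. Gfap, Aqp4, Slc17a7 and Wfs1 were not among the genes tested.

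Rats of a group differed somewhat more in the members than in the typical transcript. The median SD within groups was 0.189 over the 64 members and 0.162 over all probe sets tested. With the 3′ to 5′ covariates it was 0.151 and 0.143. The SD fell below 0.75 of its first value in 13 members (20.3%) and in 14.6% of all probe sets. Among these were Prdx6 Y17295cds_s_at, from 0.43 to 0.24, Gpx4, from 0.24 to 0.13, and Gpx1 X12367cds_s_at, from 0.22 to 0.12. Catalase on rc_AA926149_g_at had 0.62 both ways.

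**Figure D5:**
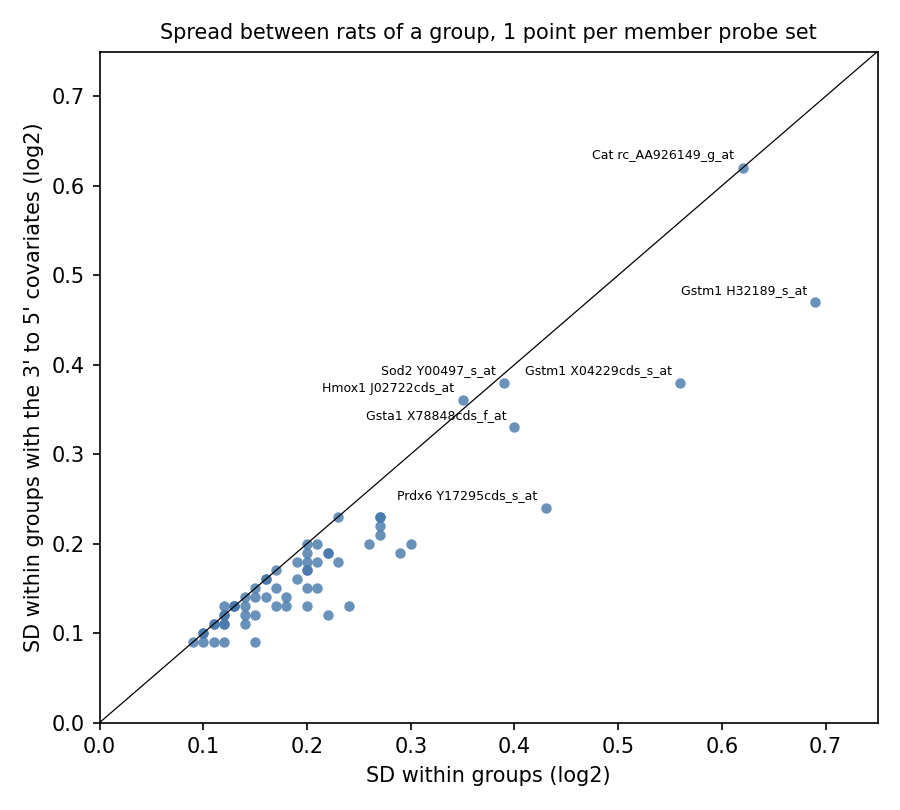
Each point is 1 of the 64 tested member probe sets, with its SD within groups on the x axis and its SD after adding the 3′ to 5′ differences of Gapdh and beta-actin as covariates on the y axis (both log2); the line marks equality. Most points lie on or below the line, with Prdx6 Y17295cds_s_at going from 0.43 to 0.24 and Cat rc_AA926149_g_at staying at 0.62.

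Several tested probe sets measured 22 of the member genes. Between IntermediateCORT and LowCORT, all probe sets of a gene had the same sign in 17 of the 22, among them Hmox1, Sod3, Gpx1, Gsta1, Gsto1, Gstm2, Gsr and Cat. Between LowCORT and Sham this held for 13, and between Injected and Sham for 11. It held for 18 between IntermediateCORT and Sham, where 0 members were called. Agreement of sign thus does not set the named genes apart, and it was not counted over other genes of the array.

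Genes around these enzymes were taken from 7 lists, which covered control of Nrf2, supply and turnover of cysteine and glutathione, sources of NADPH, thioredoxin and glutaredoxin partners, haem, iron and metal binding, Nrf2-induced and related detoxification enzymes, and sources of superoxide and hydrogen peroxide. Of 136 genes listed, 59 were tested with 95 probe sets. LowCORT against Sham called 0 higher and 2 lower (2.11%, beside 1.68% of all probe sets), which were Idh2, a mitochondrial source of NADPH (-0.24, limma adjusted p = 0.0462), and Sult1a1, a phenol sulfotransferase (-0.98, limma adjusted p = 3.33e-07). IntermediateCORT against LowCORT called 1 higher, Sult1a1 (0.84, limma adjusted p = 3.06e-05), and 2 lower (3.16%, beside 2.14%). The lower pair were Cbr1, a carbonyl reductase (-0.21, limma adjusted p = 0.0207), and Cyba, the p22phox subunit of NADPH oxidase (-0.24, limma adjusted p = 0.0321). Injected against LowCORT called Sult1a1 alone (1.01, limma adjusted p = 3.18e-07), and the other comparisons called 0 of the 95. Among the 4 probe sets of Nrf2 control the smallest F test p belonged to Park7 and Sqstm1 (limma adjusted p = 0.513 and 0.815). For cysteine and glutathione supply it belonged to Cbs and Abcc1 (0.153 and 0.217), for thioredoxin partners to Selenow and Erp29 (0.587 and 0.643), and for haem and iron to Blvra and Hp (0.3 and 0.434). For NADPH sources Me1 followed Idh2 (0.319), and for sources of superoxide Maoa followed Cyba (0.277). Nfe2l2, which encodes Nrf2, was not among the genes tested.

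Sgk1, a glucocorticoid-induced kinase, was lower in LowCORT than in Sham, by a log2 difference of -1.50 (limma adjusted p = 2.9e-07). It was 0.71 higher in IntermediateCORT than in LowCORT (limma adjusted p = 0.0213), and -0.79 from Sham in IntermediateCORT (limma adjusted p = 0.165). In Injected it differed from LowCORT by 0.12 (limma adjusted p = 0.883) and from Sham by -1.38 (limma adjusted p = 6.78e-06). Sgk1 was thus not called between Injected and LowCORT, and it was not used here as a gauge of exposure in the Injected group. Between LowCORT and Sham, 62 of the 64 members lay within 0.25 of 0. The largest difference was that of Hmox1 J02722cds_at, 0.47 with an unadjusted 95% interval of 0.17 to 0.77 (limma adjusted p = 0.0992). That probe set entered the tests through LowCORT, so the value is a description, and it was as low as 0.22 under the alternatives run.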

How the data were processed

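Values for 8799 probe sets on 39 arrays were analysed as deposited, on a log2 scale and already normalized by the authors, as nearly equal array medians show. The submitters' processing notes name MAS5, RMA and R 2.7.1 without a role, and the step that produced the table is not given in these sources. No further normalization was applied. These medians lay between 7.27 and 7.33. The number of arrays limits the precision, and the labels give no batch or scan date.

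The 59 control probe sets were left out, and probe sets with a mean at or above the 30th percentile were tested (6118). Group means over all 39 arrays were fitted with limma 3.58.1 (R 4.3.3), with 35 residual degrees of freedom and Benjamini-Hochberg adjustment over 6118 probe sets. Tests are two-sided, fold changes have SEs from limma, and the fit was tested on simulated data. The subjects are separate rats, so p-values measure the spread between animals.

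Gene names came from the platform table, and all 74 member probe sets matched the RefSeq table of GRCr8. Probe sets with several symbols were left out. Values were given in full for every gene with a called probe set and for those with the smallest F test p until 8 genes were reached (Hmox1, Sod3, Gsta1, Gpx1, Gsto1, Gstm2, Gpx3 and Gclc), and of each pathway list for called genes and the 2 with the smallest F test p. Gstm1, Cat, Nqo1 and other members were named beside them after their values were seen. The members and lists were chosen with earlier results of these data known. Alternatives covered filters, normalization, covariates, weights, moderation and samples in the fit.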

Additional observations from a re-analysis of the deposited data

Results flagged for a closer look

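Within each group of 9 or 10 arrays, the tested member probe sets were searched for a highest or lowest array that lay far from the rest by Dixon's ratio. Of 256 groups, 23 held such an array (8.98%), where chance gives about 5%, and 13 of the 23 were arrays of subjects 6, 34 and 35. All values are log2.

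Sham subject 6 was low for Gstm1 on H32189_s_at (7.87, nearest 9.60) and X04229cds_s_at (9.24, nearest 10.95), for Gstm7 (10.15, nearest 10.75), Gstm5 (9.14, nearest 9.69) and Gsta1 on X78848cds_f_at (8.97, nearest 9.91). It was also low for Gclc (6.14, nearest 6.58), Hmox2 (7.98, nearest 8.29), Prdx1 (8.49, nearest 9.07) and Prdx3 (8.99, nearest 9.45), and high for Gpx1 on X12367cds_s_at (10.86, nearest 10.56). Injected subject 34 was high for Sod1 on M25157mRNA_i_at (11.40, nearest 11.02) and low for Gstm5 on U86635_g_at (8.97, nearest 9.45). Injected subject 35 was high for Gss (7.15, nearest 6.84).

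The transferase Gstp1 was low in LowCORT subject 20 on both probe sets (10.69, nearest 10.96, and 9.56, nearest 9.99) and high in Injected subject 37 (11.65, nearest 11.12). LowCORT subject 20 was high for Gpx7 (7.57, nearest 7.30), subject 22 for Gstt1 (7.78, nearest 7.62) and subject 25 for Gstm7 (11.03, nearest 10.79), while subject 23 was low for Sod1 on Y00404_s_at (11.05, nearest 11.29). Catalase was low in IntermediateCORT subject 19 (5.38, nearest 7.14), Nqo1 high in Injected subject 30 (7.86, nearest 7.62) and Prdx3 low in Sham subject 3 (8.90, nearest 9.28). The 2 LowCORT arrays highest for Hmox1 lay close to each other and did not meet the ratio.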

How the results depend on the processing

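The median member differences lay between -0.040 and 0.037 on the log2 scale under the alternatives run, and no called difference changed sign. Some uncalled ones did, such as that of Gstm1 H32189_s_at for Injected against LowCORT, from -0.32 to 0.13 without subjects 6, 34 and 35. Counts of called members were small and moved. With the 50th percentile filter, IntermediateCORT against LowCORT called 0 members and Injected against LowCORT 1. Quantile normalization and a common 75th percentile each called 1 for Injected against LowCORT. The 3′ to 5′ covariates called 1 for LowCORT against Sham and 3 for IntermediateCORT against LowCORT (175 and 181 of all probe sets, against 103 and 131). Subject order as a covariate called 1 for Injected against LowCORT and 1 for Injected against Sham (36 and 30 of all, against 21 and 14). Array weights called 5 for IntermediateCORT against LowCORT, 1 for Injected against LowCORT, 2 for Injected against IntermediateCORT and 4 in the F test (338, 50, 105 and 307 of all, against 131, 21, 12 and 139). Fitting only the compared groups called 2 for IntermediateCORT against LowCORT. In 2 alternatives chosen after seeing the data, that comparison called 0 members without subjects 22 and 23 and 3 without subjects 6, 34 and 35. Leaving out each array in turn, also chosen after seeing the data, gave 0 to 2 members for IntermediateCORT against LowCORT, 0 to 1 for Injected against LowCORT and for Injected against Sham, 1 to 2 in the F test and 0 in the others. The cause of these moves was not tested. Of 602 values of single members under other settings, 3 lost and 23 gained a call, and of 2223 with 1 array left out, 7 lost and 13 gained one. No paired analysis was possible because each subject number belongs to a single rat. Probe sets near the filter, Hmox1 J02722cds_at among them, have signal close to the array's low end. Without the filter, the smallest unadjusted p of the 10 members below it was 0.00321 (Gsta3), with a limma adjusted p of 0.367.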
